A study of Mus musculus with 4 samples.

Results

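The 10 genes described here encode transcription factors of early B cell development and were examined for peaks of an IgD chromatin immunoprecipitation (ChIP-seq). They were taken by name: Pax5, Ebf1, Tcf3, Ikzf1, Ikzf3, Foxo1, Spi1, Bach2, Irf4 and Lef1, which are 10 of 21770 protein-coding genes placed on mm10. For each gene, every deposited peak was collected whose summit lay inside the annotated gene or within 50 kb of it. The cells were pro-B cells of wild-type mice, sorted from bone marrow as B220-positive, CD43-positive and IgM-negative, and 2 libraries were made with an antibody to mouse IgD and 2 with mouse IgG as the isotype control. All groups share this genotype and gate. The sources used here do not give strain, age or the number of mice behind a library. The authors called peaks of IgD1 against IgG1 (pair 1) and of IgD2 against IgG2 (pair 2), with 1 list for each. The lists hold no expression values, so the cell type was not checked against markers here.

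Commitment to the B lineage is driven by a small network of DNA-binding proteins. E2A, the product of Tcf3, and FOXO1 act with EBF1 to open B-lineage genes, and EBF1 and PAX5 then maintain each other and close off other fates. Ikaros (Ikzf1), Aiolos (Ikzf3), PU.1 (Spi1), BACH2, IRF4 and LEF1 act before, within or just after this step.

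Pair 2 had a summit in the window of every member and pair 1 in the window of a single member, Ikzf3. In pair 2, 10 of 10 members had at least 1 summit in the gene or the 50 kb around it, where 80.9% of all protein-coding genes had one. In pair 1 the count was 1 of 10, against a background of 15.5% of genes. Both pairs had a summit in the window of 1 member, against 13.6% of genes. Inside the gene itself, 8 of 10 members had a pair 2 summit, all but Pax5 and Ikzf1, where 31.9% of all protein-coding genes had one. No member had a pair 1 summit inside (background 5.33%) or summits of both pairs inside (3.67%). The 10 windows together spanned 2.36 Mb and held 34 pair 2 peaks and 1 pair 1 peak. The whole lists held 40628 peaks in pair 2 and 11375 in pair 1. These counts are a description, with no test. There is 1 list per pair, and nothing in the labels says that the pairs came from separate mice.

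Gene length was taken into account by setting each member beside all other protein-coding genes that were at most 20% shorter or 25% longer. The means of those genes, summed over the 10 members, came to 35.3 pair 2 peaks, next to the 34 observed. Inside the genes the sums were 19.7 for similar genes and 19 for the members, and in the flanks they were 15.5 and 15. The summed share of similar genes with a pair 2 summit in the window was 9.06 of 10, next to 10 of 10 members. For a pair 2 summit inside the gene it was 6.54 of 10, next to 8 of 10 members. By number of pair 2 peaks, 4 members lay above the median of their similar genes, 4 were equal to it and 2 were below. In pair 1 the summed mean was 6.50 peaks, next to 1 observed. That mean was carried by a few genes with many peaks, and the median gene of similar length had 0 for all 10 members. The summed share of similar genes with any pair 1 summit was 2.01 of 10, next to 1 of 10 observed.

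**Figure D1:**
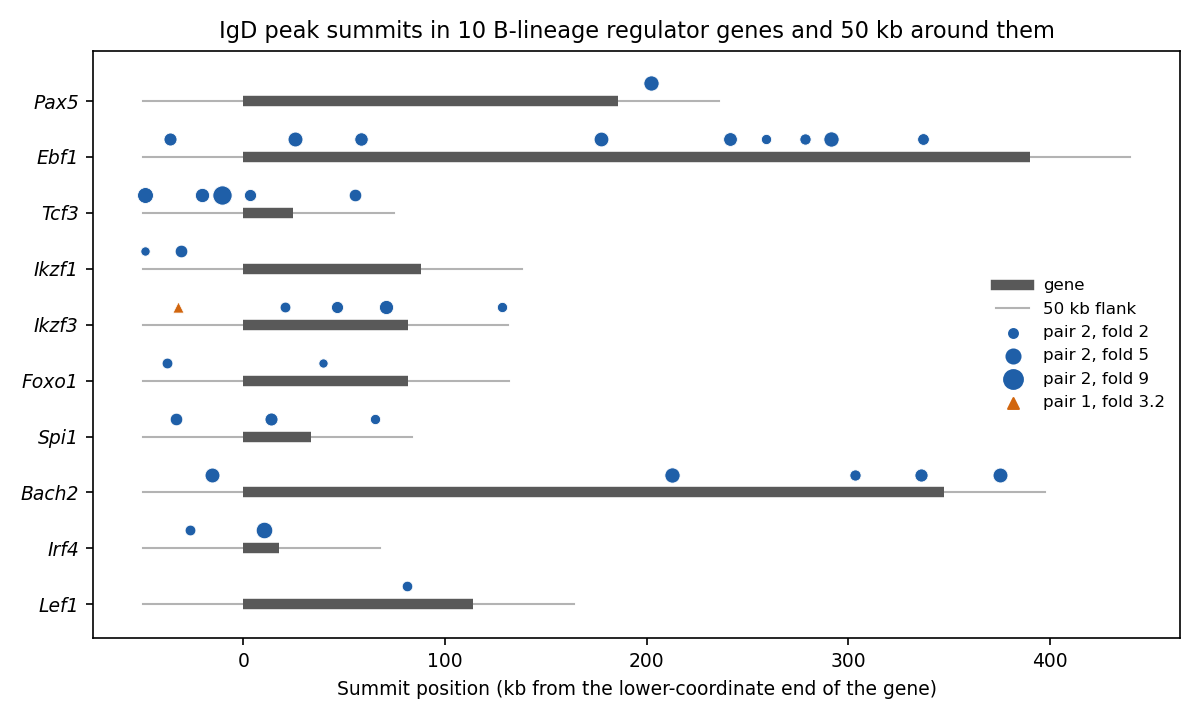
Summits of IgD peaks in the 10 genes and 50 kb on each side. The x axis gives the distance in kb from the lower-coordinate end of each gene, thick bars are genes, circles are pair 2 summits and the triangle is the only pair 1 summit, with area proportional to fold. The 34 pair 2 summits are spread over genes and flanks, and none lies within 3 kb of a gene end.

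No summit lay close to an end of these genes. In pair 2, 0 of 10 members had a summit within 3 kb of either annotated end, where 16.8% of protein-coding genes had one; over genes of similar length the summed share was 1.75 of 10. In pair 1 the count was also 0, against 2.87% of genes. The nearest summit to an annotated end lay 3180 bp inside Tcf3, at the end of the gene away from its start. The nearest to a member's own listed start lay 10191 bp downstream, in Irf4. RefSeq promoter windows (250 bases before to 50 after a start, GRCm38.p6, the assembly mm10 names) were matched for 8 members with 13 starts, while Ikzf3 and Spi1 were not matched. No peak of either pair covered any of the 13 windows, and 3.95% of the genes in that table had a pair 2 peak over a window and 1.5% a pair 1 peak.

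The sequences before 4 of these uncovered starts are shown because they hold short matches to motifs of the factors in this same network. The matches were searched on both strands in the 250 bases before each start. The letters were TCCC and GGGA with any 2 bases between them for EBF1, TGGGAA for Ikaros, GGAAGT for the ETS family to which PU.1 belongs, CAGGTG for E2A, TTTCCCGC for E2F and CANNTG for any E-box, which includes CAGGTG. Capitals mark matches on either strand to all of these but the general E-box.
Foxo1 (chr3:52268087-52268336, plus strand): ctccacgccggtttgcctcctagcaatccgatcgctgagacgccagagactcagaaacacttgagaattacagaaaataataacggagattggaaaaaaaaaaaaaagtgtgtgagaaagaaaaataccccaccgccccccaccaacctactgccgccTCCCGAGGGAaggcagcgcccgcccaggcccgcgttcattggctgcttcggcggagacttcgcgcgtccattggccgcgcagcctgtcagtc
Ebf1, second start (chr11:44619978-44620227, plus strand): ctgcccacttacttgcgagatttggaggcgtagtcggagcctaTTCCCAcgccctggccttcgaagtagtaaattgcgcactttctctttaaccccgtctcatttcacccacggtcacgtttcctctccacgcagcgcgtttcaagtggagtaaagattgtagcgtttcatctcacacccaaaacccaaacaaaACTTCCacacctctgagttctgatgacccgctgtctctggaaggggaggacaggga
Tcf3 (chr10:80433636-80433885, minus strand): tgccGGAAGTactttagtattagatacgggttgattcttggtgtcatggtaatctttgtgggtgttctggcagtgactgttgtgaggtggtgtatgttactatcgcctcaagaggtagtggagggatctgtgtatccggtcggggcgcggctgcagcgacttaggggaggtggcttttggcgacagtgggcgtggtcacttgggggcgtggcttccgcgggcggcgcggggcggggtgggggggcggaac
Lef1, last start (chr3:131156044-131156293, plus strand): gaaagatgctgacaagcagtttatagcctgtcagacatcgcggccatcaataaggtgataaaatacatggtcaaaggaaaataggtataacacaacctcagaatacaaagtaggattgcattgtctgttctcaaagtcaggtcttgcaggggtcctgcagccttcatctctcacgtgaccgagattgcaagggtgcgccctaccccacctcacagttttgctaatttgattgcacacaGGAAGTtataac
The Foxo1 match is to the EBF1 letters and begins 92 bases before the start. Only 0.78% of all promoter windows of this length hold that palindrome, and 1 of the 13 member windows did. The Ebf1 window holds an Ikaros match 207 bases and an ETS match 56 bases before the start, and the Tcf3 and Lef1 windows hold an ETS match at 246 and 12 bases. Over the 13 windows, 1 held the Ikaros letters (21.6% of all promoters), 3 the ETS letters (19.7%), 0 the CAGGTG letters (17.2%), 0 the E2F letters (0.893%) and 8 a general E-box (66.2%). The windows of the Lef1 starts at 131110297 and 131110323 overlap and hold the same E-box, so the 13 windows are not all separate sequences. A match is only a run of letters, and no sequence under the peaks themselves was used here.

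The account now goes by the role of each factor, beginning with E2A and EBF1. Tcf3 (chromosome 10, 80409541 to 80433976) had 5 pair 2 peaks and 0 pair 1 peaks in its window. That is above the upper quartile of 3 for 2729 genes of similar length, of which 3.88% had more. Only 1 of the 5 summits was inside Tcf3, with a fold of 3.79 over background and a -log10 q of 5.16. The others lay in the gene-dense flanks, which hold 4 further protein-coding genes. The strongest peak at any member was in this window: 80398562 to 80399111 with its summit inside Mbd3, 722 bp downstream of the Mbd3 start and 10.7 kb from Tcf3. Mbd3 encodes a subunit of the NuRD chromatin remodelling complex. Its fold was 9.48 and its -log10 q 24.2, and it ranked 68 by fold among all pair 2 peaks. The number of IgD fragments at this summit, solved from the deposited fold and p-value, was 36 (95% exact Poisson interval 25.2 to 49.8, which covers counting error only). The remaining flank summits had folds of 6.46, inside Plk5, 5.21, next to Mex3d, and 4.06. The nearest pair 1 summit was 379 kb away from Tcf3, and 46.5% of similar genes were farther from one.

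Ebf1 (chromosome 11, 44618100 to 45008096) is the longest member, at 390 kb, and carried the most peaks. Pair 2 had 9 summits in its window, 8 of them inside the gene, and pair 1 had 0. Among 286 genes of similar length the median was 6 and the upper quartile 8, and 13.6% had more than 9. In order of position the 8 folds inside the gene were 5.68, 4.60, 5.57, 4.83, 2.70, 3.24, 5.95 and 3.51. The highest of them, from 44909543 to 44910975, rested on 21 fragments (13.0 to 32.1) and the lowest on 9 (4.12 to 17.1), so their intervals overlap. The first summit inside Ebf1 was 23625 bp downstream of the second start printed above. Folds repeat across genes because fragments are whole numbers: over the commonest background of 2.699 fragments, 1 fragment moves the fold by 0.270. Itpr2 and Pdzd2 were the genes nearest to Ebf1 in length with the same counts of 0 and 9, and 10 of the 286 similar genes (3.50%) had those counts. The nearest pair 1 summit to Ebf1 was 376 kb away, and 34.6% of similar genes were farther from one.

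Pax5 had a single peak, outside the gene, and Foxo1 had peaks of low fold. Pax5 (chromosome 4, 44524748 to 44710694) had no summit inside the gene in either pair, although 88.4% of 675 genes of similar length had a pair 2 summit inside. Its only peak was in pair 2, with the summit 16.0 kb upstream of the start, a fold of 5.93, a -log10 q of 10.8 and 23 fragments (14.6 to 34.5). Similar genes had a median of 4 pair 2 peaks in the window, and 3.11% had fewer than Pax5. Foxo1 (chromosome 3, 52268337 to 52350109), whose product drives Il7r and Rag expression, had 2 pair 2 peaks, equal to the median of its similar genes. The fold was 2.97 in the flank and 2.18 inside the gene, the lowest at any member, from 14 fragments over a background of 5.88. Neither reached a -log10 q of 5. The nearest pair 1 summits lay 587 kb from Pax5 and 658 kb from Foxo1. Of their similar genes, 29.3% and 26.8% were farther from one.

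The Ikaros family differed in where the summits fell. Ikzf1 (chromosome 11, 11684962 to 11772930) had none inside the gene and 2 pair 2 summits in the flank before its starts, with folds of 2.23 and 4.12. Of 1413 genes of similar length, 68.6% had a pair 2 summit inside. Ikzf3 (chromosome 11, 98464610 to 98546031) had 3 pair 2 summits inside, with folds of 2.97, 3.75 and 5.14, and 1 in the flank with a fold of 2.70. Its count of 4 equalled the upper quartile of its similar genes. The only pair 1 peak at any member lay in the Ikzf3 window, from 98431650 to 98432250. Its summit was inside Erbb2, which encodes a receptor tyrosine kinase, 32.4 kb from Ikzf3, with a fold of 3.20 from 11 fragments (5.49 to 19.7) and a -log10 q of 2.41. It did not overlap a pair 2 peak, and the nearest pair 2 summit was 23.4 kb from it. Similar genes had at least 1 pair 1 summit in 17.9% of cases.

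Spi1 (chromosome 2, 91082374 to 91115759), whose product PU.1 is needed at a low level for B cells and at a high level for myeloid cells, had 3 pair 2 peaks and 0 pair 1 peaks. The summit inside the gene had a fold of 4.33, and the flank summits had folds of 4.05, near Rapsn, and 2.70, inside Madd. The count of 3 equalled the upper quartile of 2429 similar genes.

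The factors of the steps around and after the pro-B stage completed the set. Bach2 (chromosome 4, 32238413 to 32586109), which encodes a repressor of the plasma cell programme, had 5 pair 2 peaks, equal to the median of 332 similar genes, and 0 in pair 1. Inside the gene the folds were 5.95, 3.23 and 4.42, and both flank peaks had a fold of 5.68. The later flank summit was 1869 bp before Casp8ap2 and 27.5 kb past Bach2. Irf4 (chromosome 13, 30749233 to 30766981), which acts in light chain rearrangement, had 2 pair 2 peaks, equal to the median of its similar genes. The peak inside Irf4, from 30759246 to 30760067, was the strongest inside any member, with a fold of 7.03, a -log10 q of 13.7, 25 fragments (16.2 to 36.9) and rank 903 by fold. Lef1 (chromosome 3, 131110297 to 131224357), a nuclear effector of Wnt signalling in pro-B cells, had a single peak inside the gene with a fold of 2.87. Of 1157 genes of similar length, 77.6% had more pair 2 peaks than Lef1. Its nearest pair 1 summit was 1687 kb away, and 6.05% of similar genes were farther from one.

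**Figure D2:**
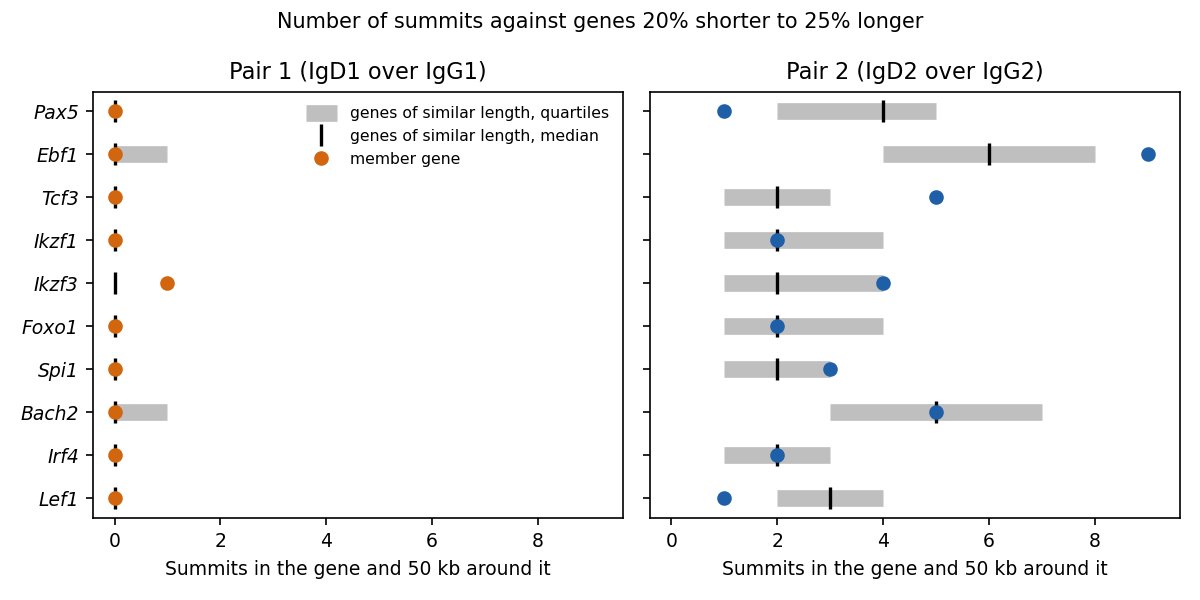
Number of summits in each gene and 50 kb around it (x axis) in pair 1 and pair 2. Grey bars give the quartiles and black ticks the median over genes from 20% shorter to 25% longer, and dots give the member. In pair 2 Ebf1 and Tcf3 lie above the upper quartile and Pax5 and Lef1 below the lower quartile, and in pair 1 only Ikzf3 is above 0.

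Strength was next compared with the pair 2 list as a whole. The 34 member peaks had folds from 2.18 to 9.48 with a median of 4.22, against a median of 3.78 for all pair 2 peaks. A -log10 q of at least 5 was reached by 20 of 34 (58.8%), against 38.8% of all pair 2 peaks. Genes of similar length gave a summed mean of 13.6 such peaks. Most sat at 3 members picked after their values were seen: Ebf1, Tcf3 and Bach2 held 15 of the 20, against a summed mean of 5.54 at their similar genes, and the other 7 members held 5 against 8.11. By gene, 8 of 10 members had a peak of this strength, all but Foxo1 and Lef1, where 52.2% of protein-coding genes had one. That share was not matched for gene length. Few fragments stand behind each fold. The median was 16 fragments, and for 28 of the 34 peaks the 95% Poisson interval of the fold, with the background held fixed, included the median of all pair 2 peaks. It lay above that median for 4 peaks and below it for the rest. The member peaks were 487 to 1618 bp wide with a median of 781 bp, near the 774 bp of the whole list, and 0 of 34 reached 5000 bp, against 3.19% of all pair 2 peaks.

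**Figure D3:**
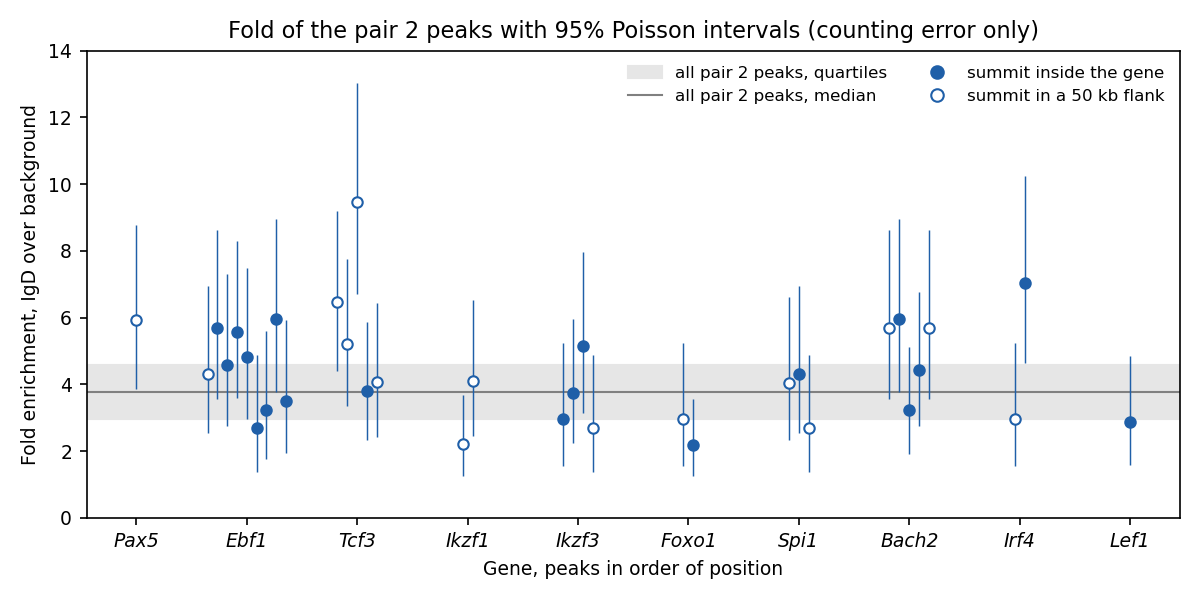
Fold enrichment (y axis) of each of the 34 pair 2 peaks by gene, with 95% Poisson intervals from the solved fragments (counting error only, background held fixed). Filled dots are summits inside the gene, open dots are summits in a flank, and the grey band and line are the quartiles and median of all pair 2 peaks. The highest value, 9.48, is the flank peak of Tcf3 inside Mbd3.

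The place of pair 2 summits along the genes was also compared. Place was measured from the annotated gene boundary, for members and other genes alike, and not from a listed start. Strand was taken from the RefSeq promoter windows, also for the other genes. The 3 summits inside Ikzf3 and the 1 inside Spi1, genes without a match there, were left out. Of 15 summits inside the remaining members, 11 (73.3%) were past the midpoint of the gene, and 8 of the 15 were in Ebf1. The choice of the gene boundary matters at Bach2, whose only listed start lies inside the gene. The summit at 61.1% of the gene was 33479 bp downstream of that start. In other protein-coding genes at least as long as the shortest member, 49.5% of 11273 summits were past the midpoint. Of all 34 member peaks, 19 were inside the member, 3 were inside another protein-coding gene and 12 were outside protein-coding genes. For 12 of the 34 the nearest protein-coding gene was not the member.

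The pairs had no peak in common at these genes, where pair 1 had only 1 peak that could be shared. The share of all pair 1 peaks that overlap a pair 2 peak is not given here. The absence of overlap therefore has no background and is not read as particular to these genes. The nearest pair 1 summit was 52.9 kb or more from each of the 34 pair 2 summits, with a median of 547 kb. The same distance over the whole pair 2 list is not given here. List length differs between the pairs, so pair 2 was also limited to its 11375 strongest peaks by q. It then had 15 summits in the windows of 6 members, where 43.1% of all protein-coding genes kept one. Similar genes gave a summed mean of 10.0 summits, and their summed share that kept one was 5.51 of 10. Of the 15 member summits, 14 were above the limit and 1 was tied at it. In the whole list 1916 pair 2 peaks were tied at the limit. Of these, 731 were kept, in order of p and then of genome position. The values given here for other genes depend on that order too. The 50 kb border itself separated summits at 49.1 kb from Tcf3 and 48.8 kb from Ikzf1, which were counted, from a pair 2 summit at 52.4 kb from Pax5, which was not.

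Further B-lineage regulators and target genes were counted in the same way. Of 32 other regulators, 29 had a pair 2 summit in the window (90.6%, against 80.9% of all genes) and 18 inside the gene (56.3% against 31.9%). A pair 2 summit lay within 3 kb of an end for 9 (28.1% against 16.8%), and 6 had a pair 1 summit in the window (18.8% against 15.5%). Their highest pair 2 folds were at Erg (8.13, in the flank), Foxp1 (7.75, inside) and Mef2c (7.30, in the flank). Fli1, an ETS factor, was the only one of the 32 with a summit of both pairs inside the gene or within 3 kb of it. Both lay inside, as in 3.67% of all protein-coding genes. The folds were 2.58 in pair 1 and 4.33 in pair 2. The pair 1 peak was weak, with 11 fragments and a -log10 q of 1.57, where the lowest of that list was 1.31. Of 20 B-lineage genes listed as downstream of PAX5, EBF1 or E2A, 15 had a pair 2 summit in the window (75%, against 80.9% of all genes) and 5 inside (25% against 31.9%), and 3 had a pair 1 summit in the window (15% against 15.5%). The highest folds there were at Cd24a (9.19, 9.08 kb away), Blk (6.22, 16.6 kb away) and Lyn (5.41, inside). These downstream genes are shorter, with a median length of 14.4 kb against 84.9 kb for the 10 members and 31.2 kb for the other regulators, and a longer gene offers more sequence to a summit.

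**Figure D4:**
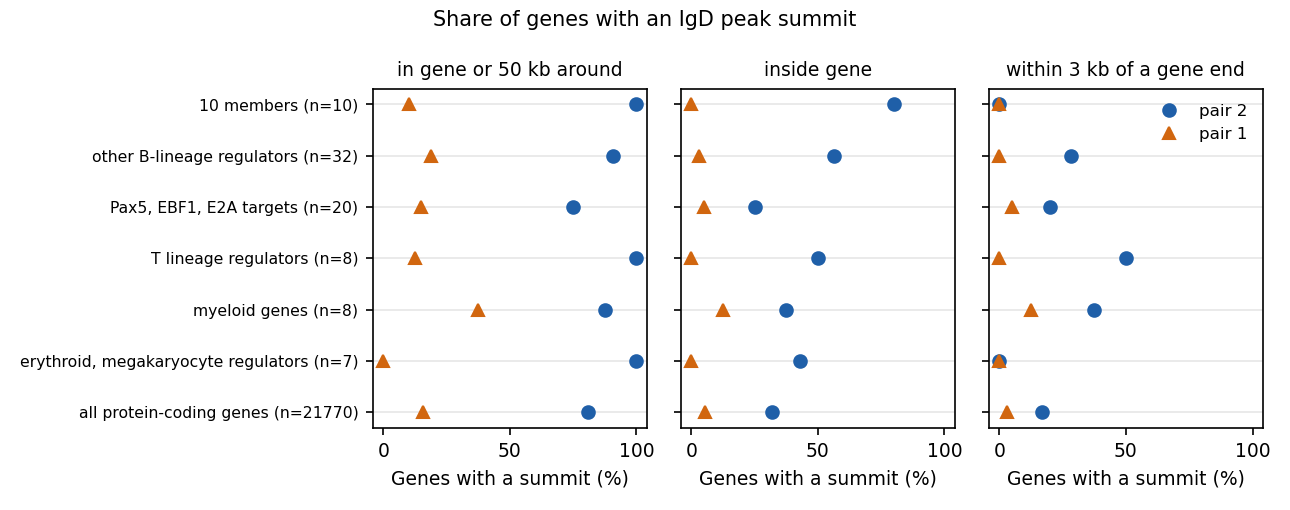
Share of genes with an IgD peak summit (x axis, %) in the gene or 50 kb around it, inside the gene, and within 3 kb of either end, for pair 2 (circles) and pair 1 (triangles). The 10 members reach 100% in the first panel and 80% in the second for pair 2, and 0% in the third for both pairs.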

How the data were processed

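ChIP-seq was done on 4 libraries of sorted pro-B cells, grouped and numbered from their titles. HISAT2, MACS2, ChIPseeker and the build mm10 stand in the submitters' processing notes with no version or setting, and library depth was not used here. The deposited files are narrowPeak tables of 10 columns. For each peak they give the authors' fold (a ratio of IgD fragments to background), -log10 p and -log10 q, which describe peaks within a list only. The background solved for pair 2 was 2.699 fragments at 70.4% of its peaks, so most folds there share the same background. The deposited integer score was not used. Both lists end just under a q of 0.05.

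Peaks were assigned by their summit. Fragments were solved from fold, taken as (fragments + 1) / (background + 1), and p, taken as a Poisson upper tail. Whole numbers within 0.01 of the deposited -log10 p were found for all 35 member peaks. That IgD fragments were not scaled is an assumption. Gene positions came from RefSeq genes on GRCm38.p6, without exons; 126 protein-coding genes in short runs of rows, read as scaffolds, were left out. The members, lists and rules were chosen with earlier results of these data known. All members and their peaks are named. Further list genes are named if a summit lay inside or within 3 kb in both pairs or their pair 2 fold was among the 3 highest of the list; 2 genes that this rule names are not reported here. For the 3 members with most pair 2 peaks, the genes nearest in length with the same counts were taken. Alternatives changed the flank, the thresholds of q, fold and width, the overlap rule, list length and the length range. The code that counts summits and solves fragments was checked on simulated positions and fragments with known answers. Tools were Python 3.11.15, pandas 2.3.3, numpy 2.4.6, matplotlib 3.10.9 and scipy 1.17.1.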

Additional observations from a re-analysis of the deposited data

How the results depend on the processing

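Of 49 values recomputed under 16 settings, 32 stayed within 1.5 times their value and 17 did not. Pair 2 held 19 peaks in the member windows with flanks of 10 kb, 20 at a -log10 q of at least 5, 20 at a fold of at least 4 and 15 in 6 members at equal list lengths, against 34 in 10. Each of the first 3 settings left 0 pair 1 peaks, 0 members with one and 0 with both pairs. At a fold of at least 4, 5 members kept a pair 2 summit inside, against 8. Members above the median of similar genes were 1 in pair 1, against 4 in pair 2. With a pair left out, no count over both pairs exists. The count of the other pair alone is 10 for pair 2 and 1 for pair 1, and both values are among the 49. The settings run for the count of 0 near gene ends could only lower it, so they say nothing about its stability. The width limit could change nothing, as no member peak reached 5000 bp. The stricter overlap rules could not lower the count of pair 1 member peaks that overlap a pair 2 peak, which was already 0. The stricter q and fold, the 10 kb flank and the equal list lengths drop weak or distant peaks by construction. Flanks of 100 kb add distant ones, and pair 2 then held 48 peaks in the member windows and pair 1 held 1. No paired analysis was possible because each pair has 1 list already called against its own IgG library, and no result comes from a test.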

Other observations

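Genes of other blood lineages were counted with the same windows, in which 80.9% of all protein-coding genes had a pair 2 summit and 15.5% a pair 1 summit. All 8 T lineage regulators had a pair 2 summit in the window, 4 of them inside the gene (50%, against 31.9% of all genes) and 4 within 3 kb of an end (against 16.8%), and 1 had a pair 1 summit in the window. The fold was 8.38 at Runx3 (1.30 kb from the gene) and 5.41 at Notch1 (inside). Of 8 myeloid genes, 7 had a pair 2 summit in the window and 3 a pair 1 summit. A pair 2 summit lay inside 3 of the 8 (37.5%) and within 3 kb of an end for 3 (37.5%). The pair 2 fold was 5.95 at Cebpa (6.70 kb away) and 5.52 at Csf1r (inside). All 7 erythroid and megakaryocyte regulators had a pair 2 summit in the window and 0 a pair 1 summit. A pair 2 summit lay inside 3 of the 7 (42.9%) and within 3 kb of an end for 0. Their highest folds were at Tal1 (6.49, inside), Gata2 (5.68, 47.5 kb away) and Zfpm1 (5.14, inside). Median lengths were 33.9 kb for the T lineage, 4.36 kb for the myeloid and 15.3 kb for this list, against 17.2 kb for all protein-coding genes.

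The genes most like Tcf3 and Bach2 in counts and length were taken as for Ebf1. Pigb and Sec61a2 were nearest to Tcf3 in length among 64 genes with 0 pair 1 and 5 pair 2 summits (2.35% of its similar genes), and Dtna and Vav3 were nearest to Bach2 among 31 genes with the same counts (9.34%).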
